A study of Rattus norvegicus with 12 samples.

Results

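The genes described here are the 10 rat genes Hmox1, Hmox2, Blvra, Blvrb, Fech, Alas1, Ftl1, Fth1, Tfrc and Slc40a1, which break down heme, make it, or carry and store iron. A probe was taken as theirs when its RefSeq transcript, with the version ignored, maps to one of these symbols. All 10 were on the arrays, out of 16581 genes named there and 10741 with a tested probe. Heme oxygenase opens the heme ring and releases iron, carbon monoxide and biliverdin, and biliverdin reductase turns biliverdin into bilirubin. The iron set free is stored in ferritin or leaves the cell through ferroportin, while the transferrin receptor brings iron in. Skeletal muscle uses heme for myoglobin and the cytochromes, and makes its own.

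L6 cells are rat myoblasts, an established line that forms multinucleate myotubes when serum is reduced. By the labels, myotubes differentiated for 6 days received GR24, pinosylvin or resveratrol at 60 µM, dissolved in DMSO, or DMSO alone as the control, and RNA was taken after 24 h. The study's methods give a longer differentiation. GR24 is a synthetic analog of the strigolactones, plant hormones, and the other compounds are plant stilbenes. Each of the 4 groups had 3 arrays, 12 in all, of 1 colour. All samples came from 1 cell line, and for pinosylvin and resveratrol nothing in the labels says that the replicates were separate cultures, so p-values measure the spread between these samples.

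Levels are the log2 of the processed signal relative to the 75th percentile of the same array, so a level of 0 lies at that percentile, and a difference of 1 is a doubling. Signal well above background was seen on each array at 58.0% to 64.3% of its 58717 spots, and the number of arrays limits the precision. The 10 genes had 14 probes, each well above background on all 12 arrays. All 9 myotube markers on the list used were well above background on every array, and the probe of Myh3, embryonic myosin heavy chain, was the brightest of them. These are bulk samples, in which fewer cells of a type and less RNA per cell cannot be told apart.

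With GR24, all 10 genes passed the threshold against the control, an adjusted p under 0.05. Of these, 9 were higher, where 36.1% of all named genes were higher in this comparison, and Slc40a1 was lower, as were 26.7% of named genes. With pinosylvin 5 of the 10 were higher, where 8.59% of named genes were, and none was lower, where 9.77% were. With resveratrol 5 of the 10 were higher, where 8.63% of named genes were, and none was lower, where 10.3% were. The genes called with each stilbene were Hmox1, Blvrb, Fech, Ftl1 and Fth1. The median difference of the 10 genes was 0.83 with GR24, 0.25 with pinosylvin and 0.31 with resveratrol, beside medians of 0.08, 0.04 and 0.02 over all named genes. The 3 comparisons share the control arrays. With the replicate number as a block, the probes called rose from 4019 to 6947 with pinosylvin and from 4123 to 6769 with resveratrol. With dim probes kept they were 2409 and 2680. The shares of named genes given here are from the fit without a block.

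**Figure D1:**
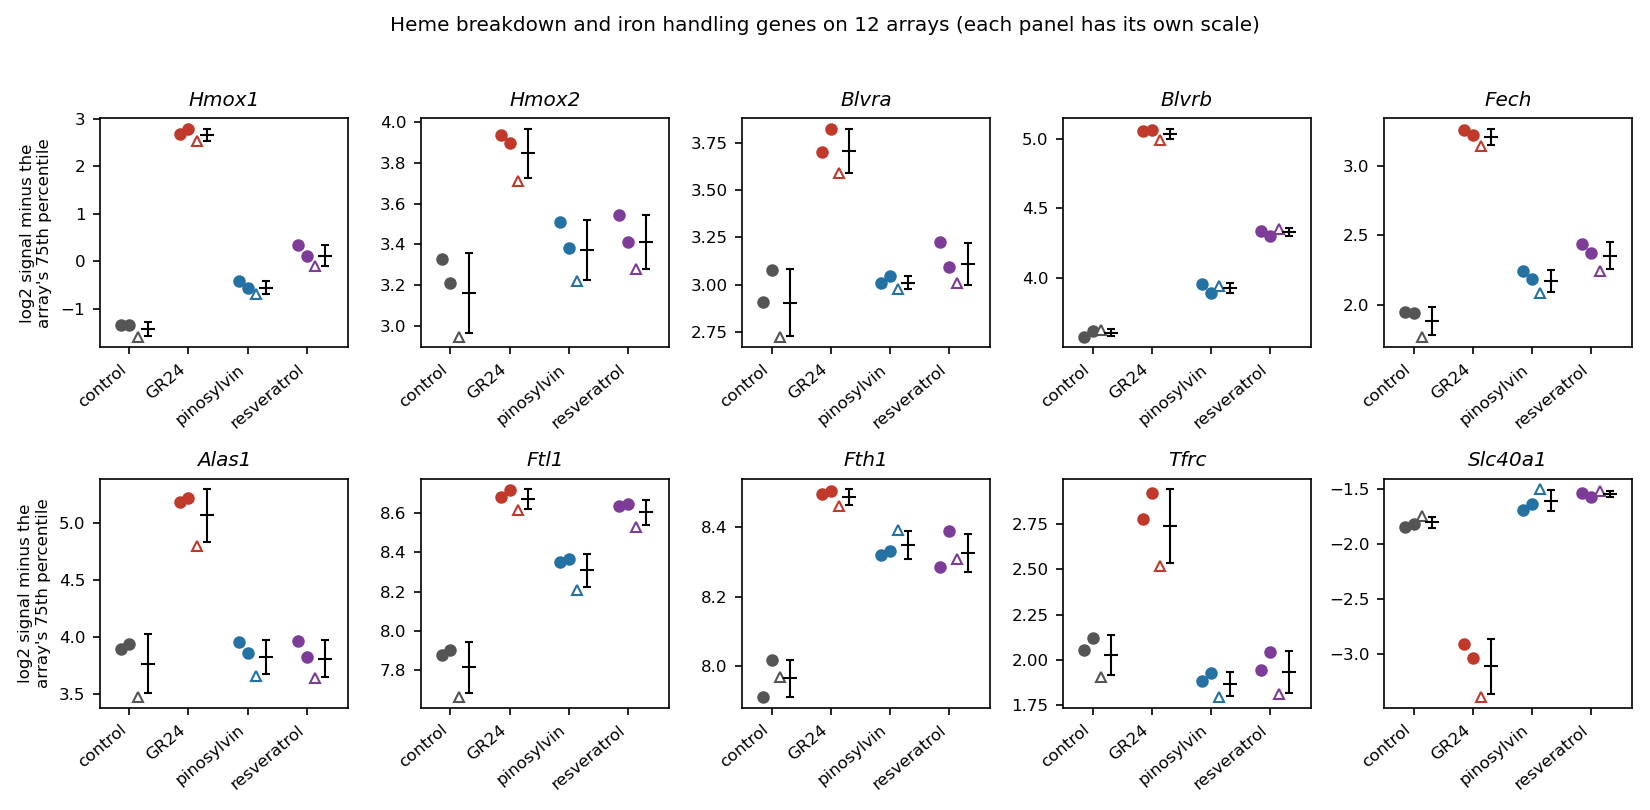
Level of each of the 10 genes on every array, in log2 units relative to that array's 75th percentile, with 1 panel per gene and a scale of its own. Filled circles are replicates 1 and 2, on slide 1, open triangles are replicate 3, on slide 2, and the bar beside them is the mean ± SD of the 3 arrays. The GR24 arrays lie above all control arrays for 9 genes and below them for Slc40a1.

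Hmox1 encodes the inducible heme oxygenase. Its level was -1.34, -1.33 and -1.59 on the control arrays and 2.67, 2.78 and 2.52 on the GR24 arrays. It was -0.41, -0.57 and -0.68 with pinosylvin, and 0.35, 0.11 and -0.09 with resveratrol. No arrays of any 2 groups overlapped, and the order was GR24, resveratrol, pinosylvin, control. GR24 raised Hmox1 16.9-fold, a log2 difference of 4.08 (SE 0.13, 95% interval 3.80 to 4.36, adjusted p = 2.55e-09). The rise was 2.91-fold with resveratrol (log2 difference 1.54, SE 0.13, adjusted p = 3.59e-05) and 1.82-fold with pinosylvin (0.86, SE 0.13, adjusted p = 0.00109). The 3 same-numbered pairs of arrays gave log2 differences of 4.01, 4.11 and 4.11 with GR24, the last within slide 2.

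Hmox2, the constitutive heme oxygenase, moved less. Its level was 3.16 ± 0.20 in the control group, 3.85 ± 0.12 with GR24, 3.37 ± 0.15 with pinosylvin and 3.41 ± 0.13 with resveratrol (mean ± SD, n = 3 in each). GR24 raised it 1.61-fold (log2 difference 0.69, SE 0.12, adjusted p = 0.00059). Arrays of both stilbene groups overlapped the control arrays, with log2 differences of 0.21 (95% interval -0.05 to 0.48, adjusted p = 0.28) and 0.25 (-0.02 to 0.51, adjusted p = 0.199). With the replicate number as a block, both differences of Hmox2 passed the threshold, with adjusted p = 0.0125 for pinosylvin and 0.00591 for resveratrol. The difference was positive in 3 of 3 same-numbered pairs with each stilbene.

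Both biliverdin reductases rose with GR24. Blvrb, which also reduces flavins, had levels of 3.58, 3.62 and 3.63 on the control arrays, 5.05, 5.06 and 5.0 with GR24, 3.95, 3.89 and 3.94 with pinosylvin, and 4.34, 4.30 and 4.35 with resveratrol. The 4 groups were fully separate, in the same order as for Hmox1. Blvrb rose 2.69-fold with GR24 (log2 difference 1.43, SE 0.05, adjusted p = 7.8e-09), 1.65-fold with resveratrol (0.72, adjusted p = 1.85e-05) and 1.25-fold with pinosylvin (0.32, adjusted p = 0.00234). Blvra, the reductase that makes the main form of bilirubin in adults, rose 1.74-fold with GR24 (log2 difference 0.80, SE 0.10, adjusted p = 5.49e-05). Against the control its log2 difference was 0.11 (95% interval -0.12 to 0.33) with pinosylvin and 0.21 (-0.02 to 0.43) with resveratrol, neither past the threshold. A second Blvra probe gave the same calls, with a log2 difference of 0.72 with GR24.

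The enzymes at the first and last steps of heme synthesis also rose with GR24. Alas1, the 5-aminolevulinate synthase of most tissues and the rate-limiting enzyme of the pathway, was at 3.89, 3.93 and 3.47 on the control arrays and at 5.18, 5.22 and 4.80 on the GR24 arrays. In both groups the slide 2 array was the lowest, and the difference within slide 2, 1.33, was close to those of the other pairs, 1.29 and 1.28. The rise was 2.46-fold (log2 difference 1.30, SE 0.16, adjusted p = 4.05e-05). Alas1 differed from the control by 0.06 with pinosylvin (95% interval -0.29 to 0.40) and by 0.04 with resveratrol (-0.30 to 0.39), and their arrays overlapped the control arrays.

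Fech, ferrochelatase, which inserts iron into protoporphyrin, was at 1.94, 1.94 and 1.77 on the control arrays, 3.25, 3.22 and 3.14 with GR24, 2.24, 2.19 and 2.08 with pinosylvin, and 2.43, 2.37 and 2.24 with resveratrol. All arrays of each compound lay above all control arrays. Fech rose 2.50-fold with GR24 (log2 difference 1.32, SE 0.08, adjusted p = 2.25e-07), 1.38-fold with resveratrol (0.47, adjusted p = 0.00265) and 1.22-fold with pinosylvin (0.29, adjusted p = 0.0331). The pinosylvin call was lost without control replicate 1 (adjusted p = 0.0548), control replicate 3 (0.106), pinosylvin replicate 1 (0.115) or pinosylvin replicate 2 (0.0988). In that comparison the fit with the replicate block gave an adjusted p of 0.00171.

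The ferritin chains rose with all 3 compounds. Ferritin light chain, Ftl1, was at 7.88, 7.90 and 7.66 on the control arrays, 8.68, 8.72 and 8.61 with GR24, 8.35, 8.36 and 8.21 with pinosylvin, and 8.63, 8.65 and 8.53 with resveratrol. Its rise was 1.81-fold with GR24 (log2 difference 0.86, SE 0.08, adjusted p = 6.6e-06), 1.73-fold with resveratrol (0.79, adjusted p = 0.000119) and 1.41-fold with pinosylvin (0.49, adjusted p = 0.00203). GR24 and resveratrol arrays overlapped, and the pinosylvin arrays lay between them and the control.

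Ferritin heavy chain, Fth1, holds the ferroxidase site through which iron enters the shell. Its level was 7.91, 8.02 and 7.97 on the control arrays and 8.49, 8.50 and 8.46 on the GR24 arrays. It was 8.32, 8.33 and 8.39 with pinosylvin, and 8.28, 8.39 and 8.31 with resveratrol. Fth1 rose 1.44-fold with GR24 (log2 difference 0.52, SE 0.06, adjusted p = 2.27e-05), a difference of 0.50 to 0.72 over all settings. The rise was 1.30-fold with pinosylvin (0.38, adjusted p = 0.00129, and 0.25 with quantile normalization) and 1.29-fold with resveratrol (0.36, adjusted p = 0.00182). The arrays of pinosylvin and resveratrol overlapped. A second Fth1 probe gave log2 differences from the control of 0.71, 0.44 and 0.47 for GR24, pinosylvin and resveratrol, all past the threshold.

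Tfrc and Slc40a1, which serve iron entry and exit at the cell surface, moved in opposite directions with GR24. This does not hold for iron importers as a class, since Slc39a14 rose and Slc39a8 fell with GR24, as described below. Tfrc, the transferrin receptor, was at 2.05, 2.12 and 1.91 on the control arrays and at 2.78, 2.92 and 2.52 on the GR24 arrays, which lay above them. It rose 1.64-fold with GR24 (log2 difference 0.71, SE 0.11, adjusted p = 0.000226). With pinosylvin its log2 difference was -0.16 (95% interval -0.40 to 0.08, adjusted p = 0.38), and with resveratrol -0.09 (-0.33 to 0.14, adjusted p = 0.648).

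Slc40a1, ferroportin, the exporter of iron from cells, was at -1.85, -1.82 and -1.75 on the control arrays and at -2.91, -3.03 and -3.39 on the GR24 arrays. GR24 lowered it 2.48-fold (log2 difference -1.31, SE 0.11, adjusted p = 2.92e-06). The size depended on the processing: the difference was -1.47 to -0.87 over all settings, and -1.41 to -1.17 with 1 array left out. Its level was -1.69, -1.64 and -1.50 with pinosylvin and -1.54, -1.58 and -1.52 with resveratrol, where the arrays lay above all control arrays without passing the threshold. Those log2 differences were 0.19 (95% interval -0.05 to 0.44, adjusted p = 0.281) and 0.26 (0.01 to 0.50, adjusted p = 0.149). The resveratrol difference passed without GR24 replicate 3 (adjusted p = 0.0307), an array that enters only through the shared spread, and on slide 1 alone (adjusted p = 0.0412). A second Slc40a1 probe also fell with GR24, by 1.63, and 1 of its pinosylvin arrays, at -1.06, stood apart from the others at -2.15 and -2.13.

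GR24 was also compared with each stilbene at the same dose and time. GR24 has a fused ring lactone joined through an enol ether to a butenolide, and the stilbenes are a pair of phenyl rings joined by an ethylene bridge. Against pinosylvin 8 of the 10 genes were higher with GR24, where 34.7% of named genes were, and 1 was lower, where 27.1% were. Against resveratrol 8 were higher, where 31.6% of named genes were, and 1 was lower, where 25.1% were. Hmox1 was 9.28-fold higher than with pinosylvin (log2 difference 3.21, SE 0.13, adjusted p = 1.62e-08) and 5.80-fold higher than with resveratrol (2.54, SE 0.13, adjusted p = 1.11e-07). Alas1 was 1.24 and 1.26 higher on the log2 scale (SE 0.16 each, adjusted p = 6.14e-05 and 6.8e-05), and Tfrc 0.87 and 0.80 higher (SE 0.11 each, adjusted p = 5.76e-05 and 0.000117). Slc40a1 was 2.84-fold lower than with pinosylvin (log2 difference -1.50, adjusted p = 1.23e-06) and 2.97-fold lower than with resveratrol (-1.57, adjusted p = 1.16e-06). Over all settings its differences were -1.79 to -1.01 from pinosylvin and -1.70 to -1.11 from resveratrol.

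For the ferritin chains, some GR24 minus stilbene differences depended on the scaling. Ftl1 differed from resveratrol by 0.07 (95% interval -0.11 to 0.24, adjusted p = 0.536) and from pinosylvin by 0.36 (SE 0.08, adjusted p = 0.00287), and the latter was 0.61 with quantile normalization, 0.60 with normexp and quantile scaling and 0.63 in the deposited table. Fth1 differed from resveratrol by 0.16 (SE 0.06, adjusted p = 0.0391), a call that was lost when any 1 of 7 arrays was left out: GR24 replicate 1 (adjusted p = 0.0999), 2 (0.1) or 3 (0.0517), pinosylvin replicate 1 (0.0527) or 2 (0.0563), and resveratrol replicate 1 (0.119) or 3 (0.104). The difference was 0.29 in the deposited table and 0.27 with the percentile over spots. Its difference from pinosylvin was 0.14 (95% interval 0.01 to 0.27, adjusted p = 0.0632), but 0.33 with quantile normalization, 0.35 with normexp and quantile scaling, 0.43 in the deposited table (adjusted p = 0.000357) and 0.23 with the percentile over spots, each past the threshold. The second Fth1 probe passed against both stilbenes, with log2 differences of 0.27 (adjusted p = 0.00456) and 0.24 (adjusted p = 0.0104). With the replicate block the first probe also passed against pinosylvin (adjusted p = 0.0286).

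Resveratrol differs from pinosylvin by an added hydroxyl group on the ring that pinosylvin leaves bare. Compared directly, none of the 10 genes was higher with pinosylvin, where 8.13% of named genes were, and 3 were lower, where 8.26% were. Hmox1 was 1.60-fold higher with resveratrol (pinosylvin minus resveratrol -0.68 on the log2 scale, SE 0.13, adjusted p = 0.00556) and Blvrb 1.32-fold higher (-0.40, SE 0.05, adjusted p = 0.000765). Ftl1 was 1.23-fold higher with resveratrol (-0.30, SE 0.08, adjusted p = 0.0342), but its second probe gave -0.27 and an adjusted p of 0.0524. The first probe's difference was -0.48 with quantile normalization, -0.51 with normexp and quantile scaling and -0.52 in the deposited table (adjusted p = 0.00111). The Ftl1 call was also lost without GR24 replicate 1 (adjusted p = 0.0542), pinosylvin replicate 1 (0.0644), 2 (0.0659) or 3 (0.105), or resveratrol replicate 1 (0.0932), 2 (0.112) or 3 (0.0525). For Fech, pinosylvin minus resveratrol was -0.18 (95% interval -0.36 to -0.0049, adjusted p = 0.166), which passed with the replicate block (adjusted p = 0.0162). The intervals of the other 6 genes held 0, the widest being that of Alas1, -0.33 to 0.36, and the narrowest that of Fth1, -0.11 to 0.15.

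**Figure D2:**
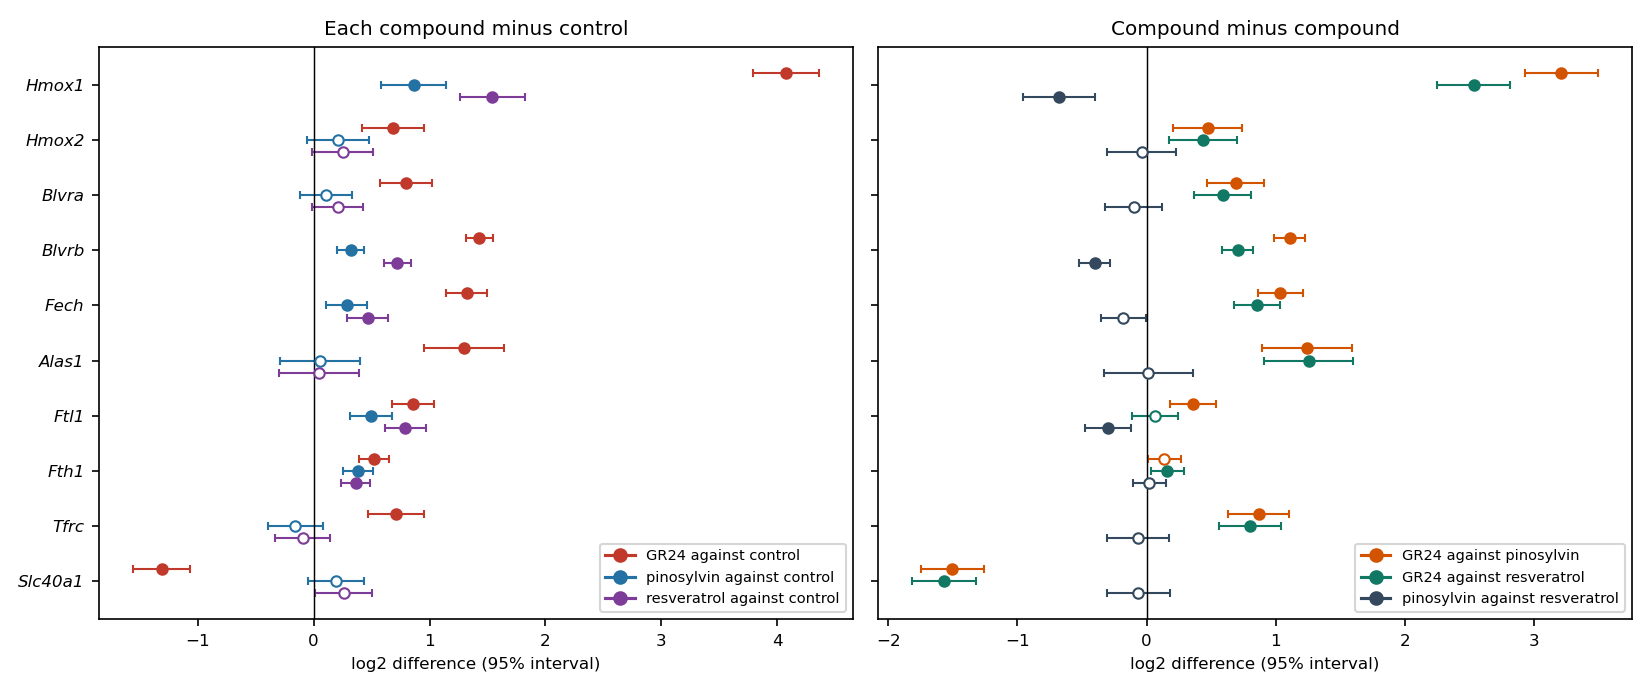
Log2 difference of each of the 10 genes, with 95% intervals, for each compound minus the control on the left and for the compounds against each other on the right. Filled points passed an adjusted p of 0.05 and open points did not. For GR24 minus control, Hmox1 has the largest difference, 4.08, and Slc40a1 is the only gene below 0, at -1.31.

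Across the 12 arrays, which share groups and slides, the levels of Hmox1 and Fech correlated (Pearson r = 0.997), though their log2 differences with GR24 were 4.08 and 1.32. Among 10740 other named genes, those most like Hmox1 were Fech, Psen2 (0.997) and LOC102546403 (0.994). Blvrb was most like Akr1b8 (0.994), an aldo-keto reductase, Keap1 (0.992), the adaptor that targets Nrf2 for breakdown, and Mgst1 (0.992), a microsomal glutathione S-transferase. Ftl1 was most like Ripor2 (0.983), Aldh2 (0.981), mitochondrial aldehyde dehydrogenase, and Gstp1 (0.981), another glutathione S-transferase. Fth1 was most like Tspyl2 (0.974), Sgk1 (0.972) and Ggt1 (0.971), the gamma-glutamyltransferase that splits extracellular glutathione.

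The genes called with GR24 alone among the 3 control comparisons, in the fit without a block, had other neighbours. As the correlations run across the groups, they follow the same group differences as the calls. Alas1 was most like Tpi1 (0.996), Dnajc25 (0.996) and Cops2 (0.996), and Tfrc most like Synj1 (0.991), Acaa2 (0.988) and Slc16a13 (0.984). Hmox2 was closest to Aup1 (0.989), Nr2c2ap (0.986) and Fcf1 (0.984), and Blvra to Lrrfip2 (0.991), Ubn1 (0.991) and Ndufaf1 (0.988). Slc40a1 was closest to Tceal1 (0.995), Pkp4 (0.989) and Ppm1l (0.988), whose log2 differences with GR24 were -2.18, -1.11 and -0.85. Within the 10 genes, Alas1 and Tfrc had r = 0.968, and Slc40a1 ran against both, with r = -0.91 and -0.92.

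Of the 6 other heme synthesis genes on the list used, 3 were higher and 1 lower with GR24, and none was called with either stilbene. For this list and those below, the shares of all named genes are 36.1% higher and 26.7% lower with GR24, 8.59% and 9.77% with pinosylvin, and 8.63% and 10.3% with resveratrol. The list's median log2 difference with GR24 was 0.30. Cpox, coproporphyrinogen oxidase, rose 2.64-fold (log2 difference 1.40, SE 0.22, adjusted p = 0.000334). Alad, which joins 5-aminolevulinate into porphobilinogen, rose by 0.76 (adjusted p = 0.00105), and Urod, uroporphyrinogen decarboxylase, by 0.38 (adjusted p = 0.00738). Uros, which closes the ring, was 0.53 lower (log2 difference -0.53, adjusted p = 0.0413). The Uros call was lost without control replicate 1 or 2, any GR24 array or pinosylvin replicate 2, with adjusted p up to 0.13. A second Alad probe passed with resveratrol, at 0.28 (adjusted p = 0.0482). Alas2, the erythroid synthase, was not called in any comparison.

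Of the 10 tested genes for heme transport and binding, 7 were higher and 1 lower with GR24. With pinosylvin 4 were higher and 2 lower, and with resveratrol 2 were higher. These 6 and 2 calls became 3 without control replicate 1, and 1 without resveratrol replicate 1 or 2. The 2 calls with resveratrol became 5 with the replicate block or the slide as a block and were 1 to 6 over all settings, and the 6 with pinosylvin were 2 to 7. Slc25a38, which brings glycine into mitochondria for heme synthesis, rose 2.61-fold with GR24 (log2 difference 1.38, adjusted p = 1.67e-06) and by 0.50 with pinosylvin (adjusted p = 0.00969). Tspo, a porphyrin-binding protein of the outer mitochondrial membrane, rose 2.80-fold with GR24 (1.49, adjusted p = 5.44e-07), and Pgrmc1, a heme-binding membrane protein, 2.55-fold (1.35, adjusted p = 1.22e-06). Slc48a1, which moves heme out of lysosomes, was higher with all 3 compounds, by 0.65, 0.32 and 0.52 for GR24, pinosylvin and resveratrol. Its pinosylvin call (adjusted p = 0.0166) was lost without control replicate 3 or pinosylvin replicate 1 or 2, with adjusted p up to 0.0701.

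Flvcr2, a transporter once described as a heme importer, was at 4.46, 4.55 and 4.28 on the control arrays and at 1.93, 1.69 and 1.85 with GR24. It was 6.07-fold lower (log2 difference -2.60, SE 0.09, adjusted p = 4.27e-09). With pinosylvin it was higher, by 0.34 (adjusted p = 0.0228). That call was lost without control replicate 1 or 3 or pinosylvin replicate 1 or 2, and on slide 1 alone. With resveratrol its difference was -0.28 (adjusted p = 0.0534), which passed without GR24 replicate 2 or control replicate 3, with adjusted p down to 0.0232. Pinosylvin exceeded resveratrol by 0.63 (adjusted p = 0.00111). Slc46a1, a carrier of folate and heme, rose by 0.78 with GR24 (adjusted p = 5.65e-06) and by 0.29 with resveratrol (adjusted p = 0.0185, lost without control replicate 2 or resveratrol replicate 1 or 2). Hebp2 had a log2 difference of 0.69 with GR24 (adjusted p = 5.67e-05), which its second probe did not show (0.16, adjusted p = 0.705). The 2 genes lower with pinosylvin, Hebp1 and Hebp2, were higher with GR24. Hebp1 had log2 differences of 0.43 with GR24 (adjusted p = 0.00687) and -0.45 with pinosylvin (adjusted p = 0.0187, lost without control replicate 1 or 2 or pinosylvin replicate 3). Hebp2 was at -0.38 with pinosylvin (adjusted p = 0.0133, lost without control replicate 1), and its second probe at -0.03 (adjusted p = 0.967). Abcb6, a porphyrin transporter, was higher with pinosylvin (0.44, adjusted p = 0.00274) and differed from the control by 0.06 with GR24 (adjusted p = 0.517), and GR24 minus pinosylvin was -0.38 (adjusted p = 0.00146).

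Of the 12 other tested genes for iron uptake, storage and export, 5 were higher and 1 lower with GR24, where 36.1% and 26.7% of named genes were, 4 were higher with pinosylvin and 2 with resveratrol. The 4 became 2 without control replicate 1 or pinosylvin replicate 2 or 3. The importers of the ZIP family moved apart with GR24: Slc39a14 rose by 0.99 (SE 0.11, adjusted p = 1.84e-05) and Slc39a8 fell 3.78-fold (log2 difference -1.92, SE 0.09, adjusted p = 4.78e-08, and -1.25 with normexp and the 75th percentile). Slc39a14 was also higher with pinosylvin, by 0.37 (adjusted p = 0.0375), a call lost without control, GR24 or pinosylvin replicate 2, control or GR24 replicate 1, or pinosylvin replicate 3, on slide 1 alone and with normexp and the 75th percentile. Ncoa4, the receptor that takes ferritin to lysosomes, rose by 0.72 with GR24 (adjusted p = 8.87e-06). In the STEAP family of metalloreductases and related proteins, Steap1 and Steap3 rose by 0.58 (adjusted p = 0.000224) and 0.52 (adjusted p = 0.00261) with GR24, the latter by 0.29 with normexp and the 75th percentile. Steap1 also rose with pinosylvin, by 0.34 (adjusted p = 0.027), a call lost without control replicate 1 or 3 or any 1 pinosylvin array. Steap2 rose with the stilbenes, by 0.52 (adjusted p = 0.00361) with pinosylvin and 0.58 (adjusted p = 0.00173) with resveratrol, and was lower with GR24 than with either, by log2 differences of -0.54 and -0.61.

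Cp, ceruloplasmin, the ferroxidase that works beside ferroportin, had its largest difference with pinosylvin. Its level was -3.25, -3.50 and -3.04 on the control arrays, -1.80, -1.88 and -1.75 with pinosylvin and -2.41, -2.47 and -2.43 with resveratrol. Cp rose 2.74-fold with pinosylvin (log2 difference 1.45, SE 0.12, adjusted p = 1.76e-05) and 1.77-fold with resveratrol (0.83, adjusted p = 0.000912), and pinosylvin exceeded resveratrol by 0.63 (adjusted p = 0.00556). With normexp and the 75th percentile the differences were 0.94 and 0.48. With GR24 its difference was -0.21 (adjusted p = 0.147), or -0.33 and past the threshold without control replicate 2 (adjusted p = 0.0255), while a second probe gave -0.84 (adjusted p = 0.0125). That probe gave 1.38 with pinosylvin (adjusted p = 0.00334) and 0.77 with resveratrol (adjusted p = 0.0536).

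Of the 4 tested genes of iron sensing and its regulators, 2 were higher and 1 lower with GR24. With pinosylvin 0 were called, and 1 with either block. With GR24 Ireb2, an RNA-binding iron regulatory protein, rose by 0.78 (adjusted p = 3.59e-05). Aco1, the other one, which is also cytosolic aconitase, rose by 0.30 with GR24 (adjusted p = 0.0113). Hjv, hemojuvelin, a coreceptor for bone morphogenetic proteins made in muscle and liver, was at 0.90, 0.73 and 0.48 on the control arrays and at -2.61, -2.48 and -2.49 with GR24. It was 9.36-fold lower (log2 difference -3.23, SE 0.12, adjusted p = 7.1e-09). With resveratrol its difference was -0.50 (adjusted p = 0.0155), a call lost without control replicate 1 or 2 or resveratrol replicate 3.

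Of the 12 tested genes for mitochondrial iron and iron-sulfur clusters, 7 were higher with GR24, 1 was higher with pinosylvin, and 5 were higher and 1 lower with resveratrol. Over all settings the calls with GR24 were 6 to 11. The 6 calls with resveratrol became 1 without resveratrol replicate 1, 2 without replicate 2 or 3 of that group, and 3 without any 1 control array. The pinosylvin call, Iscu, was lost without control replicate 1 or 3 or pinosylvin replicate 1, and on slide 1 alone. With either block the calls with pinosylvin were 5. The GR24 genes included both mitoferrins, which carry iron into mitochondria, with Slc25a37 at 1.55 (adjusted p = 2.09e-06, and 0.82 with normexp and the 75th percentile) and Slc25a28 at 0.53 (adjusted p = 0.000653). Fdxr, ferredoxin reductase, rose 2.79-fold (log2 difference 1.48, adjusted p = 3.75e-07), Fdx2, the ferredoxin of cluster assembly, by 1.04 (adjusted p = 0.000172), and Nfs1, the cysteine desulfurase, by 0.84 (adjusted p = 2.24e-05). Nfs1 also rose with resveratrol, by 0.51 (adjusted p = 0.00401), and so did Slc25a37, by 0.49 (adjusted p = 0.0222), and Slc25a28, by 0.39 (adjusted p = 0.0176). The Slc25a37 call was lost without control replicate 1 or 2 or any 1 resveratrol array, and with normexp background correction and the 75th percentile its difference was 0.17 (adjusted p = 0.222). The Slc25a28 call was lost without control replicate 1 or 3 or resveratrol replicate 1 or 2. Fdx1, adrenodoxin, was higher with GR24 (0.45, adjusted p = 6.33e-05) and lower with resveratrol (-0.20, adjusted p = 0.034), the latter lost without any 1 control or resveratrol array, GR24 replicate 1 or pinosylvin replicate 2, on slide 1 alone and with normexp and the 75th percentile.

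Of the 10 tested genes on the list of transcription factors and a heme-regulated kinase, which also holds Keap1, 8 were higher with GR24. With pinosylvin 1 was higher, and with resveratrol 4 were higher and 1 lower. The 1 call with pinosylvin, Keap1, became 4 with the replicate block (Keap1, Maff, Mafk and Nr1d2) and 5 with the slide as a block, which added Bach1, and was 0 to 4 in other settings. Bach1, the heme-binding repressor of Hmox1, rose by 1.11 with GR24 (adjusted p = 9.28e-06) and 0.49 with resveratrol (adjusted p = 0.0107). Under normexp with percentile scaling its resveratrol difference was 0.31, and on slide 1 alone the call was lost. Nfe2l2, which encodes the activator Nrf2, rose by 0.59 with GR24 (adjusted p = 0.00123), and its difference was 0.04 with pinosylvin and 0.20 with resveratrol. Keap1 rose by 1.25 with GR24 (SE 0.07, adjusted p = 9.29e-08), by 0.70 with resveratrol (adjusted p = 8.12e-05) and by 0.27 with pinosylvin (adjusted p = 0.0197, lost without control replicate 1 or 2 or pinosylvin replicate 2 or 3). Maff, a small Maf partner, rose 3.51-fold with GR24 (log2 difference 1.81, adjusted p = 2.07e-08) and by 0.55 with resveratrol (adjusted p = 0.000953), and Mafg by 0.62 with GR24 (adjusted p = 0.00556).

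The heme-binding nuclear receptors Nr1d1 and Nr1d2, which repress clock genes, rose with GR24 by 1.02 (adjusted p = 0.000465) and 0.93 (adjusted p = 1.75e-05). Nr1d2 also rose with resveratrol, by 0.48 (adjusted p = 0.00776), and its second probe with pinosylvin, by 0.42 (adjusted p = 0.00441). Nrf1, nuclear respiratory factor, was lower with resveratrol (log2 difference -0.62, adjusted p = 0.0183), a call lost without control replicate 1 or 2 or resveratrol replicate 2 or 3 and not shared by its second probe (-0.39, adjusted p = 0.429).

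**Figure D3:**
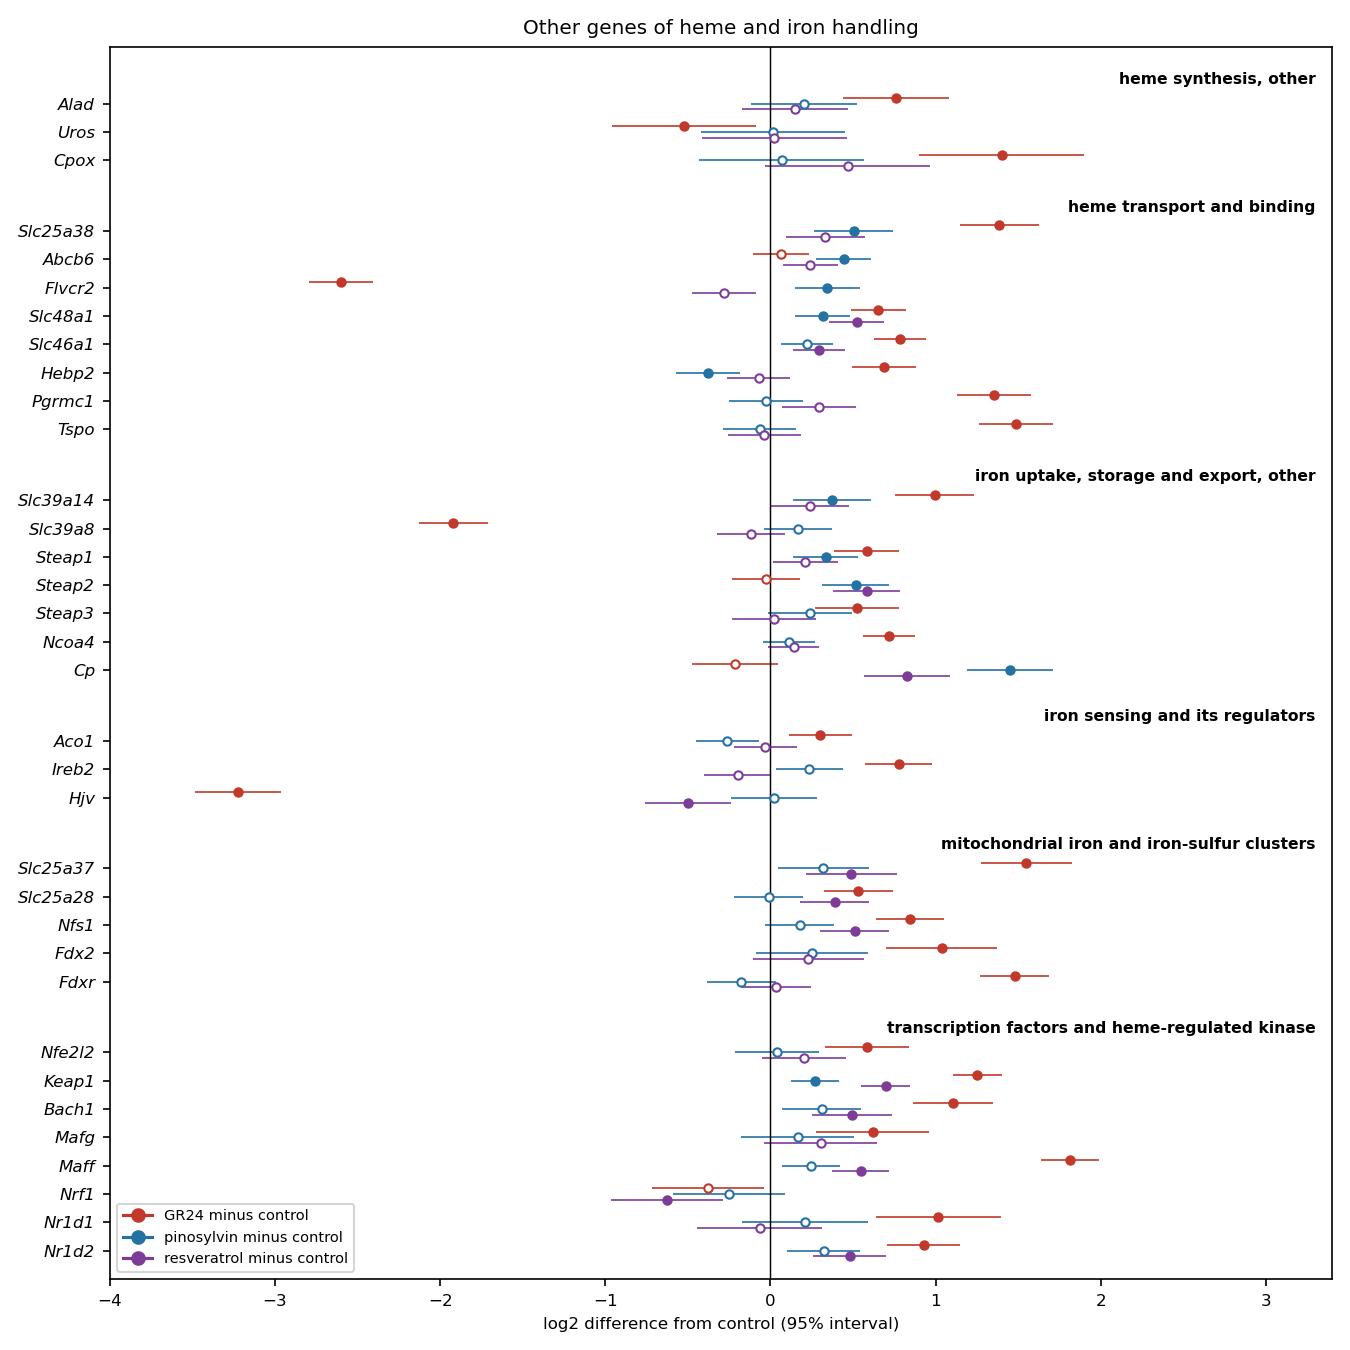
Log2 difference from the control, with 95% intervals, of the other genes of heme and iron handling that the text names by rule, grouped by list. Filled points passed an adjusted p of 0.05. Hjv, Flvcr2 and Slc39a8 lie farthest below 0 with GR24, at -3.23, -2.60 and -1.92.

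Markers of cell state moved with the same groups. Of the 9 myotube markers, 7 were lower with GR24, with a median log2 difference of -2.44, and Myog, the transcription factor myogenin, at -5.83 (adjusted p = 5.53e-10). With pinosylvin 2 were higher, and with resveratrol 5 were lower. Their summed level, relative to the 75th percentile, was 744, 810 and 701 on the control arrays, 301, 288 and 284 with GR24, 822, 856 and 796 with pinosylvin, and 609, 624 and 585 with resveratrol. Of the 7 markers of undifferentiated myoblasts and fibroblasts, 5 were lower and 1 higher with GR24, 3 lower and 1 higher with pinosylvin, and 2 lower and 1 higher with resveratrol. Their summed level was 426, 435 and 399 on the control arrays, 207, 210 and 189 with GR24, 340, 345 and 335 with pinosylvin, and 321, 344 and 320 with resveratrol, with the Vim probe the brightest on the control arrays. The part of these shifts in the heme and iron values was not tested.

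Some defining markers of erythroid cells and macrophages, which handle much of the body's heme iron, were not well above background. Of the 5 erythroid genes on the arrays, 2 to 4 were well above background on each array: Hbb on 1 array and Gata1 on 0, but Epor and Klf1 on 12 and Alas2 on 11. None of these last 3, the ones tested, was called with any compound against the control. The summed level of the 5 erythroid genes was 0.36 to 0.41 on the control arrays and 0.38 to 0.42 with GR24. It was 0.31 to 0.35 with pinosylvin and 0.34 to 0.38 with resveratrol, with the Epor probe the brightest. Of the 7 macrophage genes, Ptprc, Cd163 and Marco were well above background on 0 arrays and Itgam on 4. Of the 3 tested, Csf1r was not called with any compound (log2 difference with GR24 -0.03, adjusted p = 0.954). Cd68 was higher with GR24 (log2 difference 2.67, adjusted p = 4.11e-07), and so was Slc11a1, a metal transporter of phagosomes (2.81, adjusted p = 4.97e-08). Slc11a1 also rose with pinosylvin, by 1.55, and resveratrol, by 1.49. The summed level of the 7 was 0.27, 0.31 and 0.39 on the control arrays, 1.45, 1.40 and 1.43 with GR24, 0.52, 0.52 and 0.59 with pinosylvin, and 0.49, 0.49 and 0.52 with resveratrol, with the Slc11a1 or Cd68 probe the brightest on every array.

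RefSeq promoters, from 250 bases before to 50 after a start, on assembly GRCr8, were found for 7 of the 10 genes, with 2 starts for Hmox2. Hmox1, Ftl1 and Fth1 had no entry. The core of the antioxidant response element, TGACNNNGC on either strand, was held by 12.1% of 33469 promoters, the AP-1 motif TGACTCA on either strand by 4.63%, and the loop of the iron-responsive element (a C, then any 5 bases, then CAGTG, on the transcribed strand) by 9.58%. Among the 8 promoters the core occurred once in Blvra and once at 1 Hmox2 start, both on the opposite strand, and the other motifs did not occur. Only the 50 bases after a start can be transcribed from it. The search therefore cannot tell whether the transcripts hold the iron-responsive element. The 2 promoters with the core are printed, as genes raised by GR24, with that of Slc40a1, the gene that fell. Counted from the outer end of the gene's RefSeq span, the start printed lies 9513 bases inside for Blvra, 28 for Hmox2 and 90003 for Slc40a1. Each is on the gene's own strand, and capitals mark the match, which reads as the core on the opposite strand.

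Blvra, chr3:134802660-134802959, plus strand: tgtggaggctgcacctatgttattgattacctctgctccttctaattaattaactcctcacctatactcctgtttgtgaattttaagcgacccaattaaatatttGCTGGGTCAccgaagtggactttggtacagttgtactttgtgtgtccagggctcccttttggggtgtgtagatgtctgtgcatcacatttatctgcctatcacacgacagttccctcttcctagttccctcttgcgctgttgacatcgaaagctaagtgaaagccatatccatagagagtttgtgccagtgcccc
Hmox2, chr10:11337563-11337862, minus strand: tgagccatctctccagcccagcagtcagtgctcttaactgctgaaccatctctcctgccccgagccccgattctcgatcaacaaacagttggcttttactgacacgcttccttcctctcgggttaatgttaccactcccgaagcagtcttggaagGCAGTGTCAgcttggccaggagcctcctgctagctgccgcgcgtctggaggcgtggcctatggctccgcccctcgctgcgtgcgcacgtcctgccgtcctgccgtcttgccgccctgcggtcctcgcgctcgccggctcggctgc
Slc40a1, chr9:55543411-55543710, minus strand: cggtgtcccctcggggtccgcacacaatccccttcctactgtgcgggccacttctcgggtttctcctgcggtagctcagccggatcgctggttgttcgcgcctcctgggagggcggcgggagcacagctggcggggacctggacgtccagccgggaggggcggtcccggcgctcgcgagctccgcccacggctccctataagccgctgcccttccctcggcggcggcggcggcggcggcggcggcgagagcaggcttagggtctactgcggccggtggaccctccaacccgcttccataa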

How the data were processed

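RNA of 12 samples was measured on Agilent arrays of 1 colour, 4 groups of 3. For each array the authors deposited the scanner file, made with Agilent Feature Extraction 12.0.0.7 per the submitters' processing notes. Its processed signal is a spot intensity, per the file headers already background-subtracted and not scaled between arrays. They also deposited a series table of log2 values for 25848 probes, whose columns correlated at 0.9994 to 0.9997 with the log2 signal of their own arrays. Its background correction, scale and centring are not given in the sources used here, its column medians were 9.21 to 9.24, and it served as an alternative.

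Control spots were left out, outlier-marked spots set to missing, spots of a probe averaged, and each array's 75th percentile over probes (an intensity of 720 to 1038) subtracted on the log2 scale. No spot was saturated. Of 45598 probes, 24279 were tested, those with at least 0.5 of their spots well above background on each of the 3 arrays of some group. RefSeq accessions were matched to a gene table of assembly GRCr8, for names only, which named 21109 probes, 13648 of them tested. The tested probe with the highest 12-array mean stood for a gene, and other probes of a gene named here are given where their calls differ.

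limma 3.58.1 in R 4.3.3 fitted the 12 arrays together, 1 mean for each group, and moderated the variances with eBayes. Within each of the 6 comparisons, p-values were adjusted by Benjamini-Hochberg across the tested probes, with a threshold of 0.05. The fit was tested on simulated data with independent arrays, which held no slide or replicate effect. Replicates 1 and 2 of every group were on slide 1 and replicate 3 on slide 2, and scans followed slides. The deviations of same-numbered arrays from their group means correlated at 0.19 to 0.74 in all 18 pairs. In 5 of them, all within slide 1, another number correlated more strongly. Replicate 3 of each group was alone on slide 2, so a shared slide can also give such correlations. They cannot tell a pairing from a slide effect. As every pair's correlation was over 0.1, the replicate numbers, which the labels give, were taken as pairs. A fit with them as a block was an alternative. The others were normexp background correction (offset 50) with either scaling, quantile normalization, the deposited table, dim probes kept, probes above background on all arrays only, only the arrays compared, the slide as a block, slide 1 alone, eBayes with a trend and robust settings, outlier spots kept, the mean over a gene's probes, adjustment over all 6 comparisons together, and each array left out. Normexp used the median spot signal in place of the mean signal first planned. The percentile over spots was chosen after seeing the data.

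The members, the gene lists and the rule for named genes were chosen with earlier results of these data known. Genes of the other lists are named if they passed against the control with a log2 difference of at least 0.5, which took 32 of 54 tested genes, or were named in advance (Abcb6, Aco1, Ireb2, Nfe2l2, Keap1, Bach1, Slc48a1). Marker genes, and Urod, Alas2, Iscu, Hebp1, Fdx1 and Mafk, were named after their values were seen. After the results were seen, and for a reason unrelated to their values, 2 genes were taken off the lists, their counts and the figure, and are not reported here.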

Additional observations from a re-analysis of the deposited data

How the results depend on the processing

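In no setting did a called difference of the 10 genes change its sign, and the numbers called stayed within 1.5 times those reported: 10 in every setting for GR24 against the control, 4 to 6 for pinosylvin, 5 to 6 for resveratrol, 9 to 10 for GR24 against pinosylvin, 8 to 10 for GR24 against resveratrol and 2 to 4 for pinosylvin against resveratrol. The calls that were lost or gained beyond the arrays named above were few. Fech with pinosylvin was not called with dim probes kept or with only the arrays compared. Fth1 against resveratrol was not called with those settings, with normexp and quantile scaling, on slide 1 alone or adjusted over all comparisons. Ftl1 between the stilbenes was not called with dim probes kept or with only the arrays compared. Fth1 against pinosylvin was called in 9 settings, among them quantile, normexp and the deposited table. Ftl1 with GR24 against resveratrol was called with the percentile over spots, which moved the median of all tested probes by 0.11 in that comparison. With the replicate block, beyond the calls given with the results, no call of the 10 genes changed, and the slide as a block changed the same calls. Fech between the stilbenes was also called with normexp and quantile scaling. The replicate block raised the probes called from 4019 to 6947 for pinosylvin, from 4123 to 6769 for resveratrol and from 3528 to 6323 between them, and the slide as a block raised them to 7074, 6869 and 6443. With dim probes kept they were 2409, 2680 and 1975, with only the arrays compared 2479 for pinosylvin, and between the stilbenes 2148, 2237 and 2311 without pinosylvin replicate 2, resveratrol replicate 2 or resveratrol replicate 3.

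List counts with the stilbenes moved most. With dim probes kept, and with only the arrays compared, Flvcr2, Hebp1, Iscu, Keap1, Slc39a14, Slc48a1 and Steap1 were not called with pinosylvin, nor Fdx1, Hjv, Iscu, Nrf1, Slc25a37 and Slc46a1 with resveratrol. With dim probes kept, Hebp2 with pinosylvin, Slc25a28 with resveratrol and Uros with GR24 were not called either, and Uros was also lost with quantile normalization, with the percentile over spots and when adjusted over all comparisons. Over all settings, heme transport genes called were 2 to 7 with pinosylvin and 1 to 6 with resveratrol, and iron uptake genes 2 to 5 with pinosylvin. Mitochondrial iron genes were 0 to 5 with pinosylvin and 1 to 9 with resveratrol. Genes of the transcription factor and kinase list were 0 to 5 with pinosylvin. Iron sensing genes were 0 to 1 with each stilbene. With GR24 the mitochondrial iron genes were 6 to 11 and the iron uptake genes 5 to 9.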
